A study of Mus musculus with 30 samples.

Results

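The ligands of the epidermal growth factor receptor (EGFR) were examined as a family of 7 genes in the aorta and the kidney of mice: Egf, Tgfa, Hbegf, Areg, Ereg, Btc and Epgn. They were chosen by name, as the known mouse genes for growth factors that bind EGFR, and all 7 were among the 41128 genes of both deposited count tables. The RNA of 14 aortae and 16 kidneys had been sequenced, 1 library per organ of a mouse, which gave 30 libraries. WT mice carried CreERT2, a recombinase that tamoxifen activates, driven by the Smmhc (Myh11) promoter of smooth muscle, but no loxP sites, whereas KO mice carried the same Cre together with Egfr flox/flox. The mice were male, on the background labelled C57Bl6J, and mice of both genotypes had received 1 mg tamoxifen per day on 5 consecutive days. From 7 days later, at 6 weeks of age, they were fed a standard-fat diet (SFD) or a high-fat diet (HFD) for 18 weeks. Aortae came from 3 WT-SFD, 4 WT-HFD, 3 KO-SFD and 4 KO-HFD mice, and kidneys from 4 mice in each of these 4 groups. The Cre acts in smooth muscle, so that other cells of both organs keep the receptor, and no ligand gene was a target of the deletion.

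EGFR ligands are made as precursors anchored in the cell membrane and are set free by metalloproteases, ADAM17 for most of the family and ADAM10 for EGF and betacellulin. EGF, TGF-alpha, amphiregulin and epigen bind EGFR, and HB-EGF, betacellulin and epiregulin also bind ERBB4. The kidney is known as a major site of Egf transcription, in cells of the thick ascending limb and the distal convoluted tubule. In arteries, HB-EGF is known as a mitogen of smooth muscle cells that is released upon stimulation of G protein-coupled receptors.

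The 250 bases upstream of the start are shown for the ligand with the highest level in these data (Egf, kidney) and for Areg, a member that was hardly detected in either organ. Sequences were taken from RefSeq (GRCm38.p6), where 5 of the 7 members were matched, and are written 5′ to 3′ on the strand of the gene. Capitals mark the motifs TATAAA (the TATA box) and TGACGTCA (the cAMP response element), searched on both strands. Neither was found upstream of the 2 starts listed for Egf, of which the one at the gene's 5′ end is shown, and Areg holds both.
Egf, chr3:129755323-129755572, - strand: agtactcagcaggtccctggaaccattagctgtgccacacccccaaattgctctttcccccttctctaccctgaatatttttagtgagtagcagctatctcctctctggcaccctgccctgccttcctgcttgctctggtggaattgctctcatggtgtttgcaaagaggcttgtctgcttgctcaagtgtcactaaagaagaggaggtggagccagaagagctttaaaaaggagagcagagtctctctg
Areg, chr5:91139349-91139598, + strand: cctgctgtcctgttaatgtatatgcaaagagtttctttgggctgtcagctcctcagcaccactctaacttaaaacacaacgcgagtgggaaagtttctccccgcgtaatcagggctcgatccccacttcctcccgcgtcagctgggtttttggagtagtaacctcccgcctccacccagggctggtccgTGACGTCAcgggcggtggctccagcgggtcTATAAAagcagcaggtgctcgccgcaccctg
Of 32851 promoter windows of this length, 12.4% held TATAAA and 1.55% held TGACGTCA. These matches describe the letters only.

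The ligand genes lie on 4 chromosomes (GRCm38, GENCODE vM21 annotation). Epgn (chr5:91027464-91035215, + strand), Ereg (chr5:91074622-91093646, +), Areg (chr5:91139599-91148432, +) and Btc (chr5:91357261-91402994, - strand) are neighbours in a stretch of 375.5 kb. Egf lies at chr3:129677565-129755316 on the - strand, Tgfa at chr6:86195223-86275719 on the + strand and Hbegf at chr18:36504927-36515805 on the - strand. Egf and Tgfa overlap short or non-coding gene models, as Ereg does, and since the strand setting of the counting is not given in the sources used here, reads of overlapping genes cannot be told apart.

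Aortic libraries held 6403699 to 13052870 counts and renal libraries 16354880 to 28331314. Levels are given as fragments per 1000000 fragments of the library (FPM), scaled by edgeR's TMM factors within each tissue, and are compared between genes only per kb of exon. In bulk RNA, fewer cells of a type and less RNA per cell cannot be told apart. The marker genes fitted the labelled organs, with a summed level of smooth muscle markers of 9437 to 17058 FPM in the aortae and of proximal tubule markers of 8857 to 15707 FPM in the kidneys. All 1978 genes of chromosome 9 were listed at 0 in both tables, as were those of X, Y and the mitochondrial genome. Adam10, the ascending limb marker Kcnj1 and the smooth muscle markers Tagln and Cnn1 are therefore not assessed. Although the labels say that aortae were freed of fat, 4 of the 6 SFD aortae stood apart by their adipocyte transcripts. The summed level of 10 adipocyte markers was 3339, 2430 and 82.9 FPM in WT-SFD, 98.4, 103, 192 and 177 FPM in WT-HFD, 1993, 693 and 88.5 FPM in KO-SFD and 72.0, 145, 122 and 51.8 FPM in KO-HFD. Fabp4 was the most abundant of them and no marker was at 0. Diet effects of the ligands over both genotypes in the aorta are therefore given with and without these 4 libraries.

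EGFR ligand transcripts of the kidney were nearly all Egf. Its median level was 118.3 FPM per kb, which ranked 578 among 14915 genes, and it made up 95.9% of the summed ligand level per kb (range 93.9% to 97.0% over 16 kidneys). Hbegf followed with 2.85, Btc with 1.08 and Tgfa with 0.854 FPM per kb. Every kidney had more Egf than any kidney had Hbegf, and the ranges of Hbegf and Btc did not overlap either. Per kb of exon, Btc was higher than Tgfa in 13 of 16 kidneys. Btc and Tgfa could not be ordered, since their ranges overlapped, and with the length of the longest transcript in place of all exons Tgfa (1.22) and Btc (1.21) changed places.

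In the aorta no ligand prevailed to this extent. Hbegf had a median level of 3.23 and Btc of 3.01 FPM per kb, and Hbegf was the higher of both in 10 of 14 aortae. Ereg reached 1.62, Tgfa 0.560 and Egf 0.0741 FPM per kb. Hbegf made up 38.7%, Btc 34.1% and Ereg 18.5% of the summed ligand level (medians over libraries). The ranges of neighbours in this order overlapped except for Tgfa and Egf. Within libraries, Btc was higher than Ereg in 13 of 14 aortae and Ereg higher than Tgfa in 14 of 14. Hbegf ranked 7368 among 14650 genes, which is a middle position.

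Areg and Epgn were at the limit of detection in both organs. Areg, the amphiregulin gene, had 1 count in 14 aortae (95% Poisson interval 0.0253 to 5.57) and 13 counts in 16 kidneys, with at most 3 in a library. Epgn, the epigen gene, had 2 counts in the aortae and 4 in the kidneys. Ereg, the epiregulin gene, differed between the organs: 844 counts in 14 aortae, at least 24 in each, stood against 7 counts in 16 kidneys, although the renal libraries were deeper (319564685 against 125694728 counts in total). A count of 0 still allows a level of up to 0.433 FPM in the aorta and 0.190 FPM in the kidney with the smallest TMM-scaled library, where 3 counts are taken as the limit. Such intervals and limits cover counting error only.

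**Figure D1:**
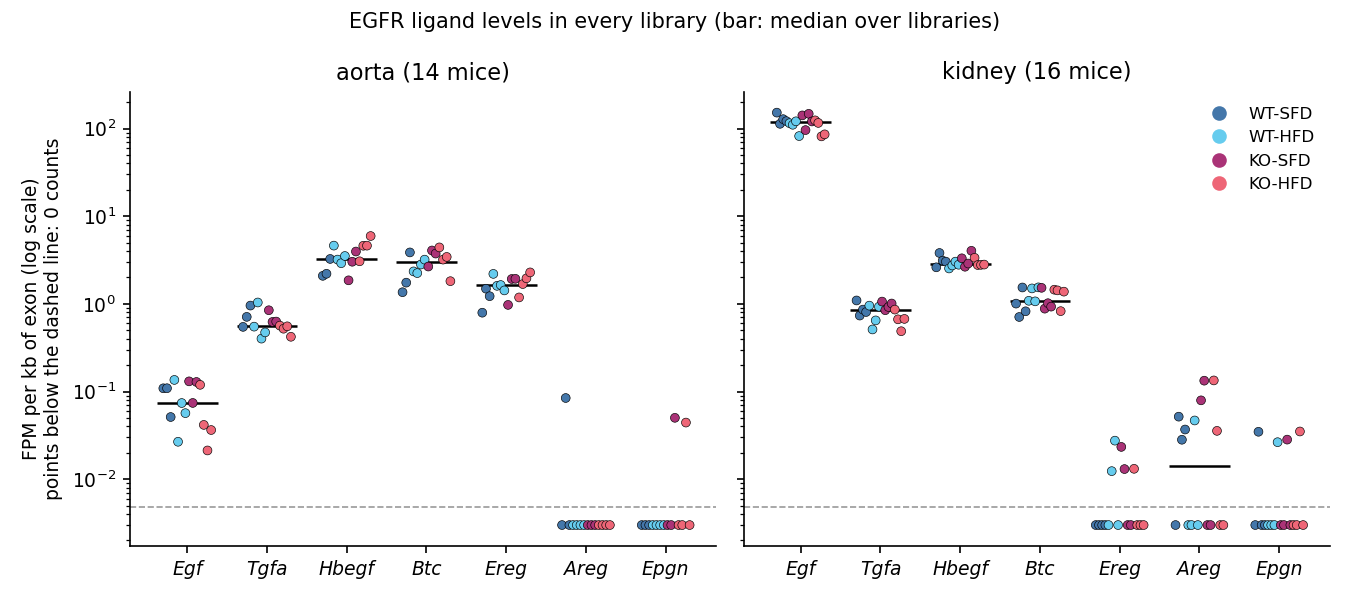
Level of each EGFR ligand in FPM per kb of exon (log axis) in 14 aortae and 16 kidneys, 1 point per library, coloured by group, with the median as a bar and libraries with 0 counts below the dashed line. Egf stands at a median of 118.3 in the kidney and 0.0741 in the aorta, Ereg at 1.62 in the aorta and near 0 in the kidney, and Areg and Epgn near 0 in both.

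The organs were sequenced at different places and scaled separately, so values between them are given side by side and were not tested. Mean levels in aorta and kidney were 0.898 ± 0.468 and 1308 ± 242 FPM for Egf (SD, n = 14 and 16), 4.10 ± 1.25 and 5.30 ± 1.19 FPM for Tgfa, 16.9 ± 5.56 and 14.6 ± 2.05 FPM for Hbegf, and 13.2 ± 4.24 and 5.29 ± 1.36 FPM for Btc. On these separate scales the renal mean was 1.29 times the aortic mean for Tgfa, 0.86 times for Hbegf and 1457 times for Egf. Ratios as close to 1 as those of Tgfa and Hbegf do not show equal or unequal levels. A WT-SFD, a KO-SFD and a KO-HFD mouse gave both organs. In this order their Egf counts were 9, 11 and 3 in the aorta and 31617, 32494 and 30227 in the kidney. The same mice had 24, 30 and 101 counts of Ereg in the aorta and 0 in all 3 kidneys. Of the thick ascending limb markers, Umod and Cldn16 were at 0 in every aorta, Slc12a1 had 3 counts and Cldn10 96 counts over the 14 aortae, and the sum of the list was at most 1.59 FPM.

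HFD was compared with SFD to see whether the diet moved the ligands, and KO with WT to see whether loss of the smooth muscle receptor did. With edgeR's quasi-likelihood test, 5 ligands in the aorta and 4 in the kidney had enough counts, and 7 comparisons per organ gave 63 tests. None of the 63 passed an adjusted p of 0.05, 5 had an unadjusted p under 0.05, and DESeq2 called none either. Adjusted p values started at 0.119 for aortic and at 0.206 for renal ligands. These values do not show that the ligands stayed the same, since the standard errors of the log2 fold changes ran from 0.10 to 0.85.

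Hbegf had the smallest p of the ligands in the aorta. Its level was 10.1, 10.7 and 15.7 FPM in WT-SFD and 22.3, 15.5, 14.1 and 17.0 FPM in WT-HFD aortae. In KO mice it was 8.98, 14.6 and 19.1 FPM on SFD and 14.8, 22.3, 22.3 and 28.7 FPM on HFD. The lowest values belonged to SFD mice and the highest to HFD mice, and the groups overlapped in both genotypes. Over both genotypes the mean was 19.6 ± 5.11 FPM on HFD (n = 8) and 13.2 ± 3.94 FPM on SFD (n = 6), a log2 fold change of 0.56 (SE 0.19, 95% interval 0.16 to 0.96, edgeR adjusted p = 0.119). In this comparison 0 of 5 ligands and 3.79% of 14796 genes were called. That background rested on single libraries, as the 561 genes called became 0 to 1855 when 1 aorta at a time was left out. The estimate was 0.51 (SE 0.27) in WT, 0.62 (SE 0.26) in KO and 0.11 (SE 0.37, adjusted p = 1) for the difference between them. In WT and in KO alone, 0 of 5 ligands and 0% of genes were called, although 2464 and 1106 genes had an unadjusted p under 0.05. The 0% in WT was not stable either. Genes were called there with DESeq2, without the filter on low counts, with library totals or with single aortae left out. The counts are given in the section on processing. The difference of the diet effect between KO and WT was called for 0 ligands and 0% of genes, with 606 genes at an unadjusted p under 0.05.

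The diet difference of Hbegf went along with the adipocyte transcripts. Without the 4 fat-rich SFD aortae the log2 fold change of Hbegf was 0.17 (adjusted p = 0.948), with 1 SFD mouse left per genotype, assumed to vary like the other groups. With the adipocyte marker mean as a covariate it was 0.19 (adjusted p = 0.920). Without WT-SFD replicate 3 it was 0.67 (adjusted p = 0.0329), and without KO-SFD replicate 3 it was 0.71 (adjusted p = 0.0452). These were the 2 SFD aortae that had few adipocyte transcripts. Across 14 aortae, which share the scaling of their library, log2 Hbegf and the log2 sum of adipocyte markers had a Pearson's r of -0.82 and a Spearman's rho of -0.72. The r was -0.70 for deviations from the group means and -0.74 without the 2 libraries farthest from the median. With smooth muscle markers r was 0.82, and their sum was lowest in 3 of the same libraries, at 9437, 11656 and 10151 FPM. Other marker sums moved with Hbegf as well. The r was 0.88 for the collecting duct list (0.84 within groups, 0.83 without the 2 farthest libraries), which in the aorta was mostly Slc4a1, also the anion exchanger of red blood cells, at a sum of at most 32.8 FPM. It was 0.83 for the tubule injury list, mostly Vim, 0.75 for fibroblast, -0.73 for distal convoluted tubule and -0.71 for Schwann cell markers. Of the distal convoluted tubule list only Trpm6 and Cnnm2 passed the low count filter in the aorta. The part of cell types in the Hbegf result was not tested further.

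**Figure D2:**
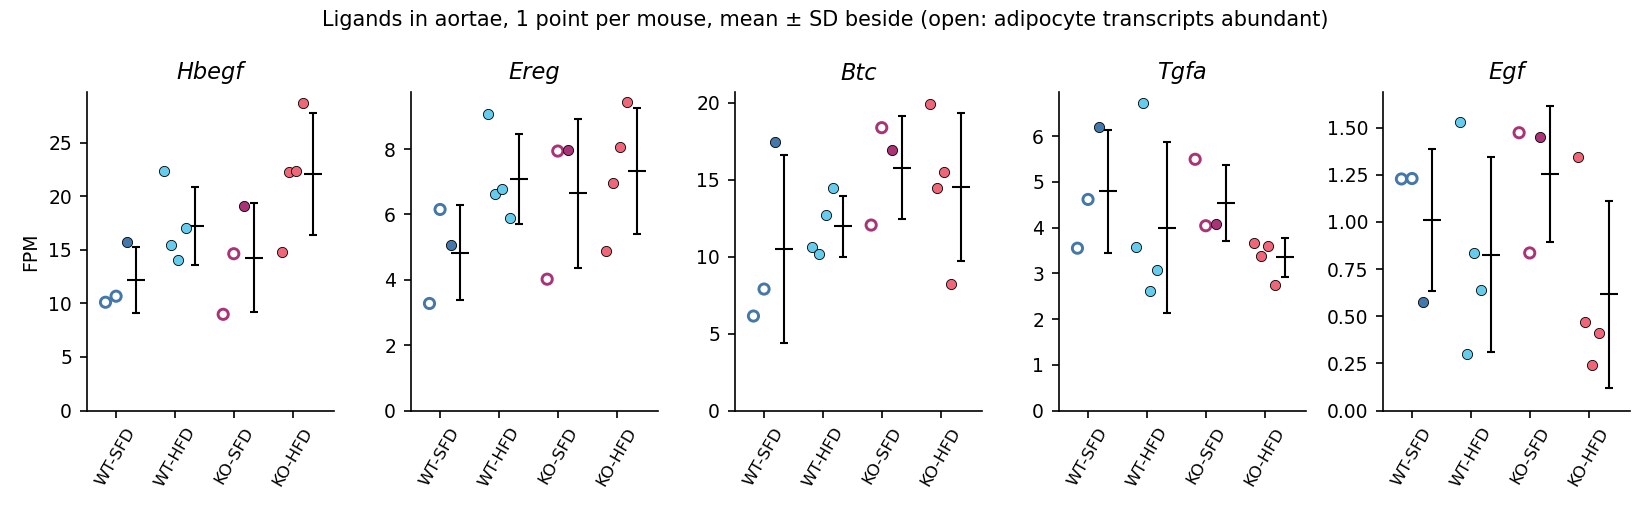
Level in FPM of the 5 ligands tested in the aorta, 1 point per mouse, with mean ± SD beside each group (n = 3 on SFD, 4 on HFD), and open circles for the 4 aortae rich in adipocyte transcripts. Hbegf reaches 28.7 FPM in KO-HFD and is lowest, at 8.98 to 10.7 FPM, in 3 of the open circles.

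Ereg varied together with Hbegf. It was 3.28, 6.15 and 5.05 FPM in WT-SFD, 9.08, 6.63, 6.78 and 5.88 FPM in WT-HFD, 4.02, 7.94 and 7.98 FPM in KO-SFD and 4.89, 6.95, 8.08 and 9.44 FPM in KO-HFD. The lowest values were in fat-rich aortae, replicate 1 of WT-SFD and of KO-SFD, and the highest in HFD aortae of both genotypes. On HFD the log2 fold change was 0.34 (SE 0.21, 95% interval -0.10 to 0.78, adjusted p = 0.412). It was 0.19 (adjusted p = 0.955) without the 4 fat-rich aortae and 0.10 (adjusted p = 0.972) with the adipocyte covariate. The r of log2 Ereg was -0.59 with the adipocyte sum and 0.81 with the smooth muscle sum, and -0.43 and 0.44 without the 2 farthest libraries. It was 0.68 with fibroblast and 0.67 with collecting duct markers (0.72 and 0.64 without the 2 farthest). With tubule injury and Schwann cell markers it was 0.78 and -0.69 (0.33 and 0.05 without the 2 farthest). The part of these cells in the Ereg values was not tested. Log2 levels of Ereg and Hbegf had an r of 0.80 and a rho of 0.78 over 14 aortae, and an r of 0.80 within groups. All other pairs of ligands in the aorta had an r between -0.51 and 0.22.

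Btc, the betacellulin gene, was 6.14, 7.90 and 17.5 FPM in WT-SFD, 10.6, 10.2, 12.7 and 14.4 FPM in WT-HFD, 12.1, 18.4 and 16.9 FPM in KO-SFD and 19.9, 14.5, 15.5 and 8.21 FPM in KO-HFD aortae. Values of WT and KO overlapped, with the widest spread in WT-SFD (10.5 ± 6.10 FPM). Over both diets and with all aortae, Btc had the largest estimate of the 5 ligands between genotypes, a log2 fold change of 0.44 for KO against WT (SE 0.23, 95% interval -0.05 to 0.93, adjusted p = 0.740). Without WT-SFD replicate 3 it was 0.72. Without the 4 fat-rich aortae it was 0.12, and the Egf estimate, at 0.42, was then larger. Its diet estimate was 0.04 (SE 0.23) and turned negative without these 4 libraries (-0.38). Of the marker lists, log2 Btc had its lowest r with podocyte (-0.73, -0.49 without the 2 farthest libraries) and Schwann cell markers (-0.69 and -0.59). Its highest r was 0.54, with fibroblast markers (0.55 without the 2 farthest libraries). Of the podocyte list only Podxl passed the low count filter in the aorta, so that the list does not stand for podocytes there. The part of cell types in the Btc values was not tested.

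Tgfa and Egf had few reads in the aorta. Tgfa, the gene of TGF-alpha, ranged from 2.61 to 6.73 FPM (20 to 67 counts per library), with diet means of 3.67 ± 1.30 FPM on HFD and 4.66 ± 1.01 FPM on SFD (log2 fold change -0.34, SE 0.22, adjusted p = 0.453). Without the 4 fat-rich aortae the estimate was -0.45 (adjusted p = 0.893). In KO aortae all values were lower on HFD (2.74 to 3.67 FPM) than on SFD (4.04 to 5.49 FPM). The groups did not overlap, as was the case for 7.04% of all genes in that comparison. Egf had 3 to 16 counts per aorta, and its diet estimate of -0.68 had a standard error of 0.42 and was -0.37 without the 4 fat-rich aortae.

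KO against WT moved no ligand past the threshold in the aorta, while Egfr itself fell. Egfr was 46.8 ± 7.41 FPM in WT-SFD (n = 3), 57.6 ± 5.71 FPM in WT-HFD (n = 4), 30.1 ± 4.73 FPM in KO-SFD (n = 3) and 35.3 ± 6.09 FPM in KO-HFD (n = 4). The log2 fold change over both diets was -0.67 (SE 0.11, adjusted p = 0.0141), where 0.196% of genes were called, and the adjusted p was 0.0514 without KO-SFD replicate 1, 0.0948 without KO-SFD replicate 3 and 0.214 with library totals in place of TMM. Ligand estimates in this comparison were 0.30 (SE 0.19) for Hbegf, 0.25 (SE 0.21) for Ereg, -0.17 (SE 0.22) for Tgfa and -0.09 (SE 0.42) for Egf, with adjusted p values from 0.740 to 0.976 over the 5 ligands. Under alternatives they ran from 0.16 to 0.48 for Hbegf and from 0.15 to 0.43 for Ereg. The ranges of Tgfa (-0.43 to 0.022) and Egf (-0.41 to 0.42) included both signs. Within SFD and within HFD, 0 of 5 ligands and 0.0811% of genes were called in each. In the kidney Egfr was 48.2 ± 7.97 FPM in WT and 48.3 ± 6.88 FPM in KO mice (n = 8 each).

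In the kidney Egf was 1714, 1277, 1443.4 and 1370 FPM in WT-SFD and 1299, 1246, 1364 and 926 FPM in WT-HFD mice. In KO mice it was 1593, 1083, 1661 and 1359 FPM on SFD and 1399, 1308, 918 and 969 FPM on HFD. The 3 lowest kidneys were all on HFD, and the groups overlapped. Over both genotypes Egf was 1178 ± 205 FPM on HFD and 1438 ± 211 FPM on SFD (n = 8 each), a log2 fold change of -0.29 (SE 0.12, 95% interval -0.55 to -0.03, unadjusted p = 0.0315, edgeR adjusted p = 0.219). It was -0.26 (SE 0.17) in WT, -0.31 (SE 0.17) in KO and -0.05 (SE 0.24) for their difference.

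Tgfa had the smallest p of the ligands in the kidney. It was 7.10, 4.77, 5.58 and 5.24 FPM in WT-SFD, 6.20, 3.32, 4.21 and 6.02 FPM in WT-HFD, 6.90, 5.50, 5.98 and 6.55 FPM in KO-SFD and 5.59, 4.33, 3.17 and 4.37 FPM in KO-HFD. In KO mice 1 HFD kidney lay within the SFD range, at 5.59 FPM, and the other three lay below it. The log2 fold change for HFD was -0.36 (SE 0.15, 95% interval -0.67 to -0.04, unadjusted p = 0.0285, adjusted p = 0.206). It was -0.20 (SE 0.21) in WT, -0.51 (SE 0.21, adjusted p = 0.245) in KO and -0.31 (SE 0.30, adjusted p = 1.00) for their difference. Under alternatives it ran from -0.34 to -0.04 in WT, from -0.65 to -0.38 in KO and from -0.46 to -0.18 for the difference.

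Hbegf in the kidney varied little, from 12.3 to 19.5 FPM, with 13.8 ± 1.17 FPM on HFD and 15.4 ± 2.49 FPM on SFD (log2 fold change -0.16, SE 0.10, adjusted p = 0.430). Its r with the summed adipocyte markers, which ranged from 83.4 to 534 FPM, was 0.69, and 0.41 without the 2 farthest kidneys. With collecting duct markers r was 0.52 (0.54 without the 2 farthest) and with smooth muscle markers 0.49 (0.71). The relation was thus not particular to adipocyte markers. The Hbegf estimate on HFD was negative in the kidney and positive in the aorta, and the difference between the organs was not tested. Btc ranged from 3.20 to 6.98 FPM, with 5.81 ± 1.17 FPM on HFD and 4.77 ± 1.41 FPM on SFD (log2 fold change 0.28, SE 0.18, adjusted p = 0.443). For HFD against SFD over both genotypes, 0 of 4 ligands and 4.48% of 15034 genes were called, and the median log2 fold change was -0.22 over the 4 ligands and -0.01 over all genes. In WT alone 0 of 4 ligands and 0.911% of genes were called, and in KO alone 0 of 4 and 2.3%. The difference of the diet effect was called for 0 of 4 ligands and 0% of genes, with 486 genes at an unadjusted p under 0.05.

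**Figure D3:**
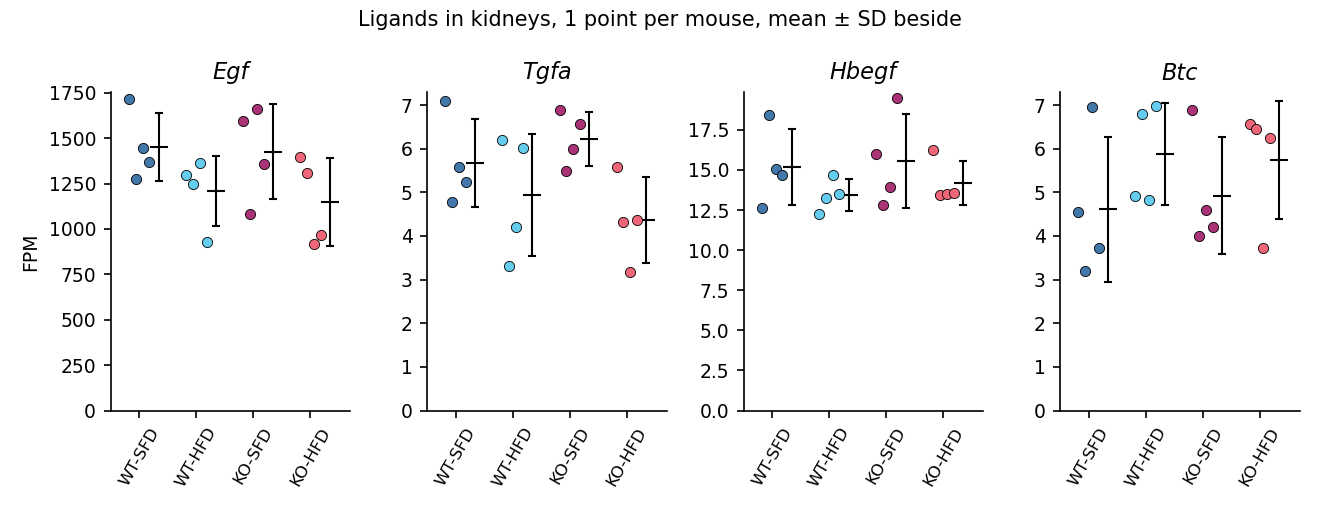
Level in FPM of the 4 ligands tested in the kidney, 1 point per mouse, with mean ± SD beside each group (n = 4). Egf is 926 FPM in the lowest WT-HFD kidney and 918 and 969 FPM in 2 KO-HFD kidneys, against 1083 to 1714 FPM on SFD.

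Genotype estimates were small in the kidney. KO against WT over both diets gave log2 fold changes of -0.05 (SE 0.12) for Egf, -0.02 (SE 0.15) for Tgfa, 0.06 (SE 0.10) for Hbegf and 0.03 (SE 0.18) for Btc, all with an adjusted p of at least 0.929. Here 0 of 4 ligands and 0.0133% of genes were called, with 0.0133% on SFD and 0.00665% on HFD, where no ligand was called either. The 95% interval was -0.31 to 0.21 for Egf and -0.33 to 0.29 for Tgfa.

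Egf of the kidney went along with markers of the thick ascending limb and ran against those of the distal convoluted tubule. Of the 5 thick ascending limb markers, Umod, the uromodulin gene, was the most abundant and Kcnj1 was at 0. Their summed level was 6463, 6053, 7066 and 5204 FPM in WT-SFD, 5443, 5037, 6480 and 4416 FPM in WT-HFD, 7678, 7143, 7523 and 7148 FPM in KO-SFD and 5792, 5626, 3125 and 4565 FPM in KO-HFD. The 3 kidneys with the least Egf also had the 3 lowest sums. Over 16 kidneys, which share the scaling of their library, log2 Egf and log2 sum had an r of 0.76 and a rho of 0.69, an r of 0.71 within groups and of 0.58 without the 2 farthest libraries. Of the other lists examined, the adrenal gland markers, at a sum of at most 4.65 FPM, had an r with Egf of 0.73. It was 0.73 within groups and 0.71 without the 2 farthest libraries. Only Star of that list passed the low count filter in the kidney, so that the list does not stand for adrenal tissue. A high r with Egf was thus not particular to the limb markers. Of the 4 markers tested, Umod passed the test and fell on HFD (5134 ± 535 FPM on SFD, 3846 ± 727 FPM on HFD, log2 fold change -0.41, adjusted p = 0.0494). That call was close to the threshold and was lost in 15 of 21 alternatives, with an adjusted p of up to 0.105. The other three had negative estimates that did not pass, -0.49 for Slc12a1 (adjusted p = 0.222), -0.23 for Cldn16 (0.275) and -0.13 for Cldn10 (0.455). Of 6 markers of the distal convoluted tubule, Slc12a3, the thiazide-sensitive cotransporter (0.40, adjusted p = 0.0308), and Pvalb, parvalbumin (1.23, adjusted p = 4.27e-04), rose on HFD. The other four did not pass, with log2 fold changes of -0.17 for Trpm6, -0.25 for Calb1, 0.03 for Cnnm2 and -0.14 for Klk1. The median of the 6-marker sum was 1660 FPM in WT-SFD, 1633 FPM in WT-HFD, 1499 FPM in KO-SFD and 1699 FPM in KO-HFD, with ranges that overlapped. The call of Slc12a3 was lost in 6 of 21 alternatives, with an adjusted p of up to 0.0668. Log2 Egf and the log2 sum of the 6 markers had an r of -0.64 and a rho of -0.72. The r was -0.70 within groups and fell to -0.43 without the 2 farthest libraries. For Tgfa the r was 0.65 with limb markers (0.37 within groups, 0.61 without the 2 farthest libraries), -0.67 with distal convoluted tubule markers (-0.67 and -0.42) and 0.64 with adrenal gland markers (0.41 and 0.64). Within groups it was 0.72 with fibroblast and 0.75 with Schwann cell markers. Whether cell number or transcription lay behind these values was not tested.

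**Figure D4:**
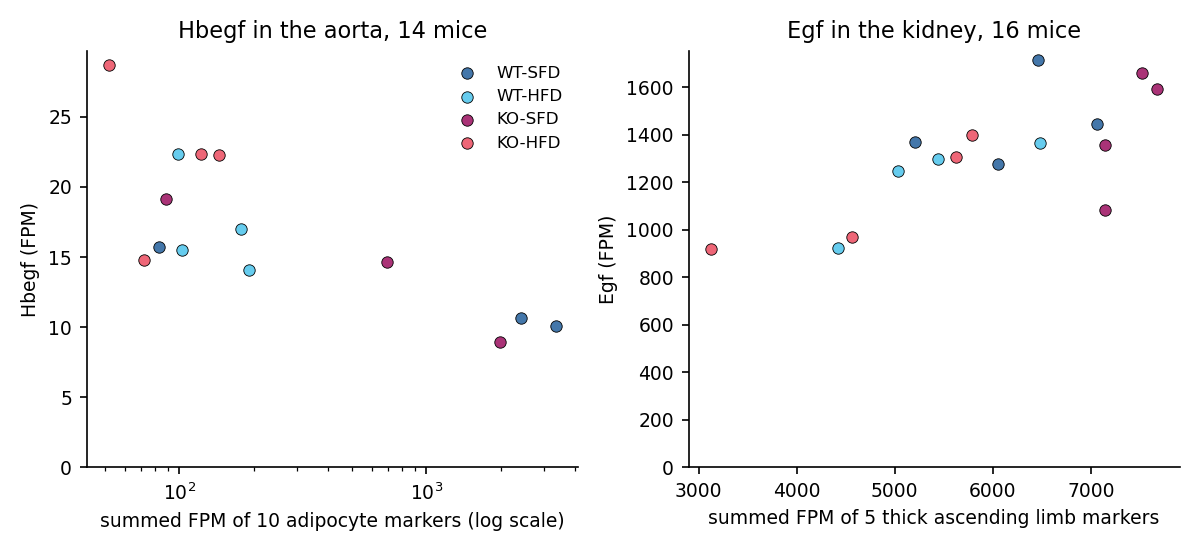
Left, Hbegf in FPM against the summed FPM of 10 adipocyte markers (log axis) in 14 aortae. Right, Egf in FPM against the summed FPM of 5 thick ascending limb markers in 16 kidneys, 1 point per mouse, coloured by group. The 4 aortae with the highest adipocyte sums (693 to 3339 FPM) have 8.98 to 14.6 FPM of Hbegf, and the kidney with the lowest limb sum (3125 FPM) has the lowest Egf (918 FPM).

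Around the ligands, 52 further genes of the pathway were listed: receptors, neuregulins, proteases and carriers of the ligands, attenuators of the receptor and immediate early genes. In the kidney 46 of them were tested for HFD against SFD over both genotypes, of which 3 rose, 2 fell and 41 did not pass. The median log2 fold change was 0.08. The 5 called genes were 10.9% of those tested, beside 4.48% of all genes. In WT alone 0 of the 46 were called, beside 0.911% of all genes. In KO alone 2 rose and 1 fell, which is 6.52% beside 2.3% of all genes. The difference of the diet effect between KO and WT was called for 0 of the 46 and 0% of all genes. The calls in KO alone therefore do not show a genotype difference. The values that follow are over both genotypes. Among the attenuators, Errfi1, the feedback inhibitor MIG6 of the EGFR kinase, rose from 278 ± 74.1 FPM on SFD to 551 ± 110 FPM on HFD (log2 fold change 0.98, SE 0.14, adjusted p = 4.10e-04). Spry4, a Sprouty inhibitor of signalling by receptor tyrosine kinases, rose from 6.72 ± 0.962 to 9.96 ± 1.18 FPM (0.56, SE 0.11, adjusted p = 0.00458). Its diet groups did not overlap, as was the case for 1.27% of genes. Cblc, a ubiquitin ligase of the CBL family, fell from 51.7 ± 10.1 to 36.2 ± 4.34 FPM (-0.51, SE 0.11, adjusted p = 0.0117). Errfi1 and Spry4 thus rose and Cblc fell, while the other attenuators tested did not pass with edgeR.

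Upstream of the receptor, Rhbdf2, the iRhom2 partner of ADAM17, rose from 16.3 ± 1.92 to 22.5 ± 5.29 FPM on HFD in the kidney (0.45, SE 0.11, adjusted p = 0.0245). Leaving out WT-SFD replicate 3, WT-HFD replicate 1 or KO-SFD replicate 2 brought its adjusted p to 0.0507, 0.0586 and 0.0521. Adam17 itself was 29.3 ± 3.45 FPM on SFD and 29.4 ± 3.42 FPM on HFD. Nrg1, a neuregulin that binds ERBB3 and ERBB4 but not EGFR, fell from 7.27 ± 1.37 to 3.51 ± 1.52 FPM (-1.07, SE 0.19, adjusted p = 0.00322). None of the receptors passed the test, with -0.22 (SE 0.09, adjusted p = 0.209) for Egfr, -0.13 (SE 0.06) for Erbb2, 0.09 (SE 0.09) for Erbb3 and -0.18 (SE 0.21) for Erbb4. Of the genes nearest to the threshold, Adam19 (0.63, adjusted p = 0.0808) and Lrig3 (0.28, adjusted p = 0.0772) were called by DESeq2 (adjusted p = 0.0407 and 0.0458). Of 11 immediate early genes tested, which are transcribed within minutes of receptor stimulation, none passed, with the smallest p for Dusp1 (0.65, adjusted p = 0.127) and Jun (0.35, adjusted p = 0.311).

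**Figure D5:**
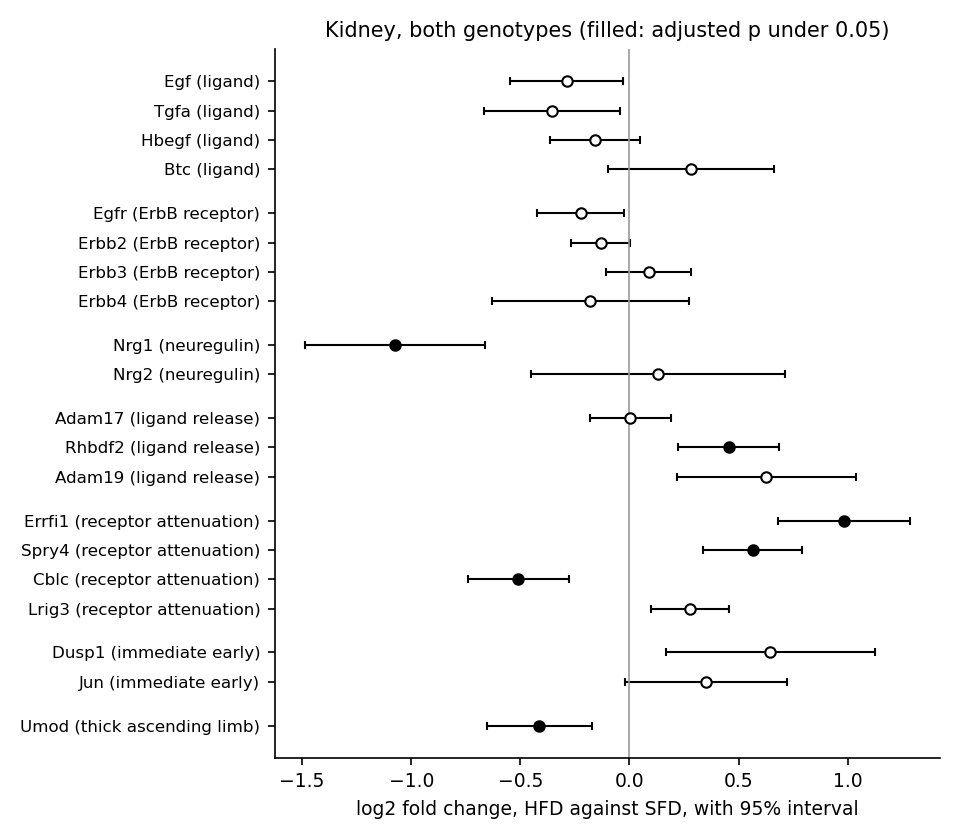
Log2 fold change for HFD against SFD over both genotypes in the kidney with its 95% interval, for the 4 ligands, the receptors and selected genes of the pathway. Filled points mark an adjusted p under 0.05. Errfi1 (0.98), Spry4 (0.56) and Rhbdf2 (0.45) lie above 0 and Nrg1 (-1.07), Cblc (-0.51) and Umod (-0.41) below, while the 4 ligands are open points between -0.36 and 0.28.

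In the aorta 44 of the 52 genes were tested for HFD against SFD, and 1 fell, which is 2.27% beside 3.79% of all genes, a background that varied with single libraries as given above. This was Adam12, a metalloprotease reported to shed HB-EGF, with 13.9 ± 13.6 FPM on SFD and 2.11 ± 0.345 FPM on HFD (log2 fold change -2.56, adjusted p = 0.0247). Without the 4 fat-rich aortae its log2 fold change was 0.46, and it was no longer called. In 12 others of the 20 alternatives the call was lost with the sign kept, with an adjusted p of up to 0.985 (adipocyte covariate). The receptor Erbb3 (-1.13, adjusted p = 0.0574) did not pass. It passed with DESeq2 (adjusted p = 0.0166) and without WT-SFD replicate 3 (0.0148) or KO-SFD replicate 2 (0.0441), and was at -0.77 (adjusted p = 0.843) without the 4 fat-rich aortae. Egfr was at 0.27 (adjusted p = 0.208). Errfi1, which rose in the kidney, was at 0.45 (adjusted p = 0.211) in the aorta, and the difference between the organs was not tested. The immediate early genes Egr1 (0.44) and Dusp1 (0.63) both had an adjusted p of 0.213. Without WT-SFD replicate 3 it was 0.0209 and 0.00773, whereas without the 4 fat-rich aortae the estimates were 0.030 (adjusted p = 0.994) and 0.011 (adjusted p = 0.998). The ligand carriers Cd9 (0.25, adjusted p = 0.182) and Cnih1 (-0.27, adjusted p = 0.203) did not pass, while Cd9 had an adjusted p of 0.0469 without WT-SFD replicate 3. Without the 4 fat-rich aortae their estimates were 0.087 and -0.089.

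Genes whose log2 level was most like that of a ligand over the libraries of an organ were listed as a description. For Hbegf in the aorta these were Cdr2 (r = 0.94), Fat1 (r = 0.94) and Tlr4 (r = 0.93) over 14 aortae and 14796 genes, and for Ereg Fam198b (r = 0.96) and Asap2 (r = 0.93). Btc was closest to Fam92a (r = 0.97), Egf to Spata2 (r = 0.84) and Tgfa to Gm15853 (r = 0.82). In the kidney, over 16 mice and 15034 genes, Egf was closest to Wnt9a and Klhl14 (r = 0.84 each) and Tgfa to Fam107a (r = 0.90). Hbegf was closest to Fasn (r = 0.86) and Acaca (r = 0.80), genes of fatty acid synthesis, and Btc to Rgs16 (r = 0.82). Fasn had a median of 113 FPM and a maximum of 768 FPM, and Acaca 16.5 and 60.7 FPM. The weight of single kidneys in these r was not tested. The libraries differ in diet, tissue composition and depth, and the part of each in the correlations was not tested. When deviations from the group means were used, 5 of the 27 genes in the first 3 places remained.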

How the data were processed

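RNA of 14 aortae and 16 kidneys was extracted from snap-frozen tissue, depleted of ribosomal RNA and sequenced in paired ends, the aortae at a university facility and the kidneys by a company. The authors deposited 1 table of raw counts per gene for each organ. According to the labels and the methods of the study, they trimmed reads with cutadapt, aligned them to mm10 with TopHat and counted fragments with featureCounts. The strand setting is not given in the sources used here.

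Columns were assigned to mice by their labels. Aortae had a median of 8998366 counts (26846 genes with a count) and kidneys of 19544128 (23798 genes). Each organ was fitted on its own with edgeR 4.0.16 (TMM factors, filterByExpr, quasi-likelihood test, R 4.3.3), with all 4 groups in 1 model and no covariate, and p values were adjusted after Benjamini and Hochberg over all genes that passed the filter (14796 aortic, 15034 renal). The threshold for a call was 0.05 for the adjusted p. The averaged comparisons weight both genotypes, or both diets, equally. FPM are counts per 1000000 of the TMM-scaled library size, and log2 levels used a prior count of 2. No 2 libraries agreed within sampling noise (chi-square per gene of at least 8.38 over 91 pairs of aortae and 9.21 over 120 pairs of kidneys). Each library came from its own mouse within an organ. The fitting code was tested on simulated data. DESeq2 1.42.0, other scalings, no filter on low counts, fewer groups, left-out libraries and marker covariates were tried as alternatives. Leaving out the 4 fat-rich aortae was chosen after seeing the data.

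The ligands and all gene lists were chosen with earlier results of these data known. Beyond the lists, genes were named as the 3 with the highest Pearson's r to a ligand in an organ, of which the text gives at least the first.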

Additional observations from a re-analysis of the deposited data

Results flagged for a closer look

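Of 26 groups of 4 mice in which a ligand was measured, 2 held a mouse far from the other three by Dixon's criterion, the gap to the nearest value over the whole range, and chance alone flags about 1 in 20 groups. Both were in KO-HFD kidneys. Hbegf was 16.2 FPM in replicate 1 and 13.4, 13.5 and 13.6 FPM in the other three (ratio 0.941). Btc was 3.74 FPM in replicate 3 and 6.23, 6.45 and 6.56 FPM in the other three (ratio 0.884). Replicate 3 also had the lowest Egf (918 FPM) and the lowest Tgfa (3.17 FPM) of the 16 kidneys. The causes were not tested.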

How the results depend on the processing

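Of 513 alternative values of the ligand estimates given above, 471 kept their direction and their side of the threshold, 2 passed the threshold (Hbegf on HFD in the aorta, without WT-SFD replicate 3 or KO-SFD replicate 3) and 40 turned their sign without passing it. Over both genotypes, Egf on HFD in the kidney stayed between -0.34 and -0.23 and Tgfa between -0.43 and -0.27. Aortic Hbegf on HFD over both genotypes ran from 0.17 to 0.71, with a lowest edgeR adjusted p of 0.0329. Aortic Egf (3 to 16 counts), Areg and Epgn had few counts, and whether greater depth would change their values was not tested.

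Signs turned as follows. The aortic Btc estimate on HFD was -0.25 with the adipocyte covariate and -0.38 without the 4 fat-rich aortae, where Adam12 was at 0.46. The aortic Egf estimate for KO was 0.11 with library totals and 0.42 without those 4 libraries. The difference of the Hbegf diet effect in the aorta was -0.17 with library totals, and the renal Btc estimate for KO was -0.056 with the tubule covariate. That covariate averages limb and distal tubule markers, which moved in opposite directions with Egf, and so did not adjust for the limb markers alone. With 1 library left out at a time, the ranges were -0.091 to 0.32 for aortic Btc on HFD, and for KO in the aorta -0.41 to 0.16 for Egf and -0.25 to 0.022 for Tgfa. The difference of the diet effect ran from -0.13 to 0.35 for aortic Hbegf and from -0.16 to 0.060 for renal Egf. For KO in the kidney the ranges were -0.076 to 0.17 for Btc, -0.10 to 0.0049 for Egf, -0.0051 to 0.11 for Hbegf and -0.10 to 0.052 for Tgfa. Library totals in place of TMM moved the median of all genes in the aorta by up to 0.29.

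Counts of called genes depended more on the setting, and the cause was not tested. In the aorta, DESeq2 called 666 genes for HFD in WT (0 with edgeR), 8 for HFD in KO (0), 21 for KO on SFD (12), 40 for KO on HFD (12), 2 for the difference of the diet effect (0), 1007 for HFD over both genotypes (561) and 56 for KO over both diets (29). In the kidney it called 263 (137), 695 (346), 26 (2), 1 (0), 1101 (674) and 15 (2) genes, in the same order without KO on HFD. With library totals, 219 genes were called for HFD in WT aortae, 1 for KO on SFD in the kidney and 1 for KO over both diets in the kidney, where RLE factors also gave 1. Without a filter on low counts, the counts were 527 for HFD in WT, 6 for HFD in KO, 19 for KO on SFD and 25 for KO on HFD in the aorta, and 4 for KO on SFD in the kidney. With only the 2 groups compared, they were 3 for KO on SFD and 27 for KO on HFD in the aorta and 228 for HFD in KO kidneys. With the adipocyte covariate, they were 2 for HFD in KO, 23 for KO on SFD, 25 for KO on HFD and 3 for HFD over both genotypes, and with the tubule covariate 0 for KO on HFD in the kidney (304 at an unadjusted p under 0.05). Without the 4 fat-rich aortae, they were 2 for KO on SFD, 29 for KO on HFD, 15 for KO over both diets and 0 for HFD over both genotypes (947 at an unadjusted p under 0.05).

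Leaving out 1 library at a time gave 0 to 1801 genes for HFD in WT aortae, 5 to 28 for KO on SFD, 6 to 11 for KO on HFD and 0 to 1855 for HFD over both genotypes. The highest counts for HFD were without WT-SFD replicate 3, and HFD over both genotypes fell to 0 without WT-SFD replicate 1 or 2, WT-HFD replicate 1, 2 or 4, KO-SFD replicate 1 or KO-HFD replicate 3 or 4. In the kidney the counts were 196 to 403 for HFD in KO, 0 to 2 for KO on SFD, 0 to 1 for KO on HFD and 1 to 3 for KO over both diets.

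Per kb of the longest transcript, median levels were 0.175 for Egf, 0.803 for Tgfa and 5.40 for Hbegf in the aorta, and 280.1 for Egf, 1.22 for Tgfa and 4.76 for Hbegf in the kidney. No paired analysis was possible because no mouse number occurs in more than 1 group of an organ.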
